A study of Mus musculus with 36 samples.

Results

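Seromucous acinar cells are the cells of the salivary end pieces that fill secretory granules with small saliva proteins. They were chosen here from single-cell RNA profiles of 26 mouse submandibular glands as cells in which 10 secretory transcripts (Prol1, Spt1, Car6, Oit1, Mucl1, Wfdc12, 2310057J18Rik, Scgb2b26, Scgb2b27 and Scgb1b27) together made up 30% or more of all unique molecular identifiers (UMIs, one per captured transcript molecule), and the demilune transcripts Dcpp1, Dcpp2 and Dcpp3 together under 10%. Cells also had at least 100 detected genes, under 15% mitochondrial UMIs and at least 1500 UMIs. Of 26987 barcodes, 23346 passed those limits on genes and mitochondria, 11829 of these held at least 1500 UMIs, and 7077 met the rule, which was 59.8% of the cells of that depth. Each gland gave between 46 and 749 such cells.

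Acinar cells of the submandibular gland make the primary saliva. They pump chloride and sodium so that water follows into the lumen, and they release stored protein by exocytosis when nerves signal. Their protein cargo in mice is dominated by small proteins that are made in bulk on the endoplasmic reticulum, among them secretoglobins (androgen-binding proteins that pair as alpha with beta or gamma subunits), a secreted carbonic anhydrase, mucin-like proteins and whey acidic protein family members. Mucin-like cargo carries O-glycans, sugar chains that are extended, branched and capped with sialic acid by Golgi enzymes. The rodent gland is known for differences between the sexes that follow androgen, best described in its granular duct cells.

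The study compared control glands with glands of a tumour model at postnatal days 40 and 90 (P40 and P90), with both sexes in each group, by Drop-seq, in which single cells are caught in droplets with barcoded beads. Control mice had K14-Cre with an EYFP reporter that Cre switches on. The double mutants had both of these and, in addition, beta-catenin GOF and Bmpr1a LOF alleles, so that Wnt signalling was raised and Bmp signalling lowered where K14-Cre had acted, in mice of C57BL/6 background throughout. K14-Cre is active in basal epithelial cells and their offspring, and the acinar cells of a double-mutant gland need not all carry the recombined alleles. There were 6 control P40 glands, 6 control P90 glands, 7 double-mutant P40 glands and 7 double-mutant P90 glands, 14 labelled female and 12 labelled male, and each library came from 1 gland. RNA together with surface epitopes (CITE-seq) was measured in a further 2 control and 2 double-mutant glands at P70. Bulk RNA-seq was run on 2 whole glands, a control one taken at P70 and a double-mutant one taken at P100. By label both CITE-seq double-mutant glands were female and the controls 1 male and 1 female, and both bulk glands were female.

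Libraries held 777537 to 7013325 UMIs and the acinar cells of a gland 110910 to 5683062. In 2 libraries the sex-linked transcripts went against the label: double-mutant P40 replicate 1, labelled male, had Xist and almost no Y-linked UMIs, and double-mutant P90 replicate 5, labelled female, had the reverse. Results by sex are given with and without them. In each of the 4 CITE-seq libraries some cells had Xist without Y-linked transcripts and others Y-linked transcripts without Xist, so sex was not used there. Of the acinar barcodes, 1 occurred in 2 libraries. Control P40 and control P90 glands never shared a batch, and among controls the effects of stage and of batch therefore cannot be told apart.

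The short stretches upstream of the start sites of 5 genes are shown because their transcripts carry the results that follow: the paired secretoglobins and Scgb2b26 filled the cells, Pip was the most abundant transcript outside the rule, and Wfdc18 differed between the genotypes. Each is the 60 bases before the annotated start (RefSeq, GRCm38.p6), written in the direction of transcription, with the letters TATAA in capitals where they occur between positions -45 and -16.
Scgb1b27: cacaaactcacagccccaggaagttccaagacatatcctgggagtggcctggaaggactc
Scgb2b27: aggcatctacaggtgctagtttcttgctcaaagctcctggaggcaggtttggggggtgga
Scgb2b26: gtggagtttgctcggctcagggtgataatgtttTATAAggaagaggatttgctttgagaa
Pip: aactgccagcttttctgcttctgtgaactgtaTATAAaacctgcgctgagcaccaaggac
Wfdc18: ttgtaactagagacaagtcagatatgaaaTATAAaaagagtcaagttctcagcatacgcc

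These lie at chr7:34021421-34021480 on the plus strand (Scgb1b27), chr7:34013943-34014002 on the minus strand (Scgb2b27), chr7:33944986-33945045 on the minus strand (Scgb2b26), chr6:41847489-41847548 on the plus strand (Pip) and chr11:83708944-83709003 on the plus strand (Wfdc18). Scgb1b27 and Scgb2b27, the alpha subunit and one of its partners, are neighbours on chromosome 7 that are read from opposite strands. TATAA began at position -27 for Scgb2b26, -28 for Pip and -31 for Wfdc18, and was found in 1 of the 9 secretory genes of the rule that had an entry (Spt1 is listed there as Mucl2). Of all 32851 promoters, 3.89% held it in that window on the transcribed strand. A match of letters is a description and not a measured binding site.

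The 10 secretory transcripts that chose the cells took 79.97% of the median acinar cell's UMIs, against 2.22% in the median other cell of the same minimum depth. Their levels are therefore a description, with no test. Spt1, salivary protein 1, alone took 37.3% ± 4.2 (SD, n = 26 glands) of the acinar UMIs, with a lowest gland of 29.4% and a highest of 45.0%. Scgb1b27 followed with 10.8% ± 2.2 and Scgb2b27 with 8.98% ± 2.8. The secreted carbonic anhydrase Car6 (6.90% ± 1.4) and the salivary mucin-like Prol1 (6.27% ± 2.2) did not differ from each other beyond their spread. Scgb2b26 made up 3.89% ± 1.4, Wfdc12 1.42% ± 1.1, 2310057J18Rik 0.706% ± 0.72 and Mucl1 0.205% ± 0.21, and the last 2 of these had spreads as large as their means. Oit1 was rare at 0.0173% ± 0.0057, and 49.8% of the acinar cells held a UMI of it, against 1.23% of 163 immune reference cells, whose median depth was 1963 UMIs against 4635. Spt1 UMIs were found in 100% of cells of every kind examined, immune cells included, where they made up 1.47% of UMIs, so single UMIs of the most abundant transcripts do not mark a cell.

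**Figure D1:**
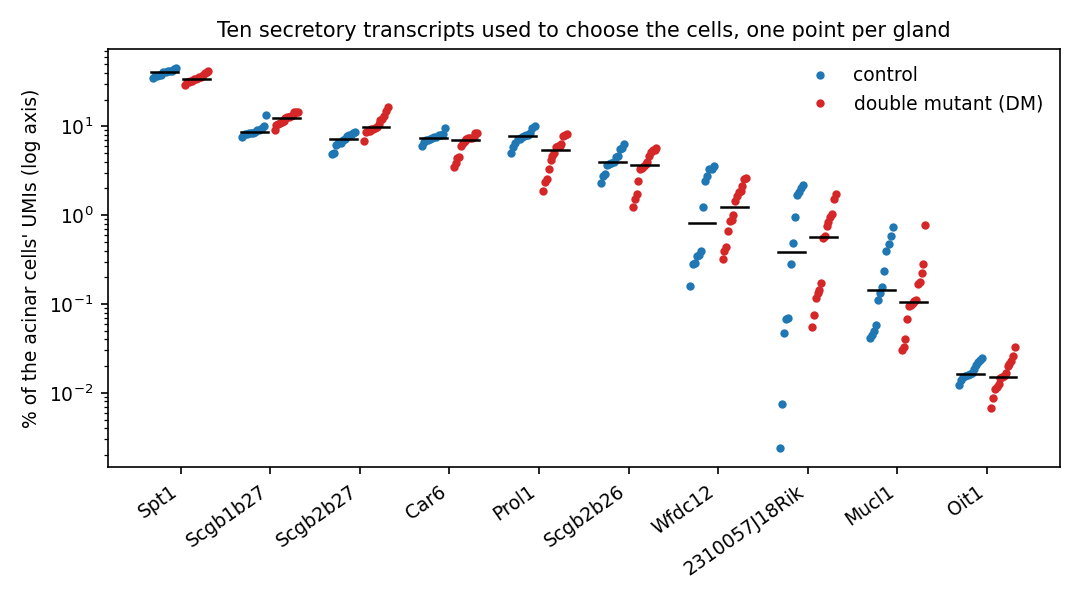
Percent of the acinar cells' UMIs (log axis) for each of the 10 secretory transcripts that chose the cells, 1 point per gland, 12 control glands in blue and 14 double-mutant glands in red, bars at the medians. Spt1 lies between 29.4% and 45.0%, whereas 2310057J18Rik spreads from 0.00237% to 2.19%.

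The rule cut through a sparsely filled range. Between 25% and 30%, just outside, lay 29 cells with few demilune UMIs, in which Spt1 made up 15.7% and Prol1 1.70% of UMIs, and between 30% and 35%, just inside, lay 31 cells with 14.02% Spt1 and 1.93% Prol1. Cells just outside held 861 genes at the median and cells just inside 725, both above the 527 genes of all acinar cells. Their duct transcript Klk1 was at 2.53% and 2.66%.

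Markers that the rule did not use were measured in the same cells. Pip, prolactin-induced protein, stood at a median of 42891 UMIs per 1e+06 acinar UMIs (CPM) over glands, 7.51 times its level in other cells. Lpo, the lactoperoxidase of saliva, was 13.2 times higher than in other cells at 186 CPM, and Bhlha15 (Mist1), a transcription factor of serous acinar cells, was 3.77 times higher at 59.3 CPM. Aqp5, the apical water channel, was at 284 CPM in acinar and 128 CPM in other cells of control glands and at 178 and 110 CPM in double mutants. Slc12a2, the chloride importer of fluid secretion, was at 372 CPM in acinar and 231 CPM in other cells of control glands, but in double mutants it was lower in acinar (256 CPM) than in other cells (323 CPM). Smr3a, another salivary secretory gene, was at or near 0 in every gland, with no gland above 5.96 CPM. It also had 0 reads in both whole glands of the bulk data, so its absence was not particular to the acinar cells.

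The 20 transcripts outside the rule that were most concentrated in the acinar cells included minor secretoglobins and predicted genes. Their ratios over other cells were led by the predicted gene Gm37338 (87.4 times) and included Scgb1b26-ps (40.95 times), Scgb2b21 (33.7 times), Scgb1b30 (28.5 times), Scgb2b3 (27.9 times), Scgb2b2 (26.7 times) and Scgb2b1 (21.4 times). These paralogues are near-identical in part, and how reads that fit several of them were counted can shift UMIs from one name to another. Mup5, a major urinary protein, was 36.8 times higher, with ratios from 2.98 to 699 over glands, Agt, angiotensinogen, 13.4 times higher, and the list also held Kcnn4, a calcium-activated potassium channel (3.05 times), and Gjb1, a gap junction protein (2.96 times). These ratios describe cells that were chosen by their RNA and have no test.

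Shares of the rule transcripts were compared over the cells of each gland. Scgb1b27 and Scgb2b27, the alpha subunit and its partner, rose and fell together over the cells, with a Spearman rho between 0.60 and 0.93 over the 26 glands (median 0.82), and Scgb1b27 went with Scgb2b26 at a median rho of 0.60, positive in 26 of 26 glands. Prol1 went with Car6 at a median rho of 0.44, positive in 25 of 26. Spt1 went against Scgb1b27 at a median of -0.51, negative in 26 of 26. The points share a library, and all values are shares of 1 total, so no p is given.

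The share of acinar cells among cells of at least 1500 UMIs did not differ between genotypes beyond the spread of glands. It was 60.6% ± 10.5 (SD, n = 6) in control P40 glands, 61.3% ± 10.8 (n = 6) in control P90 glands, 50.4% ± 16.5 (n = 7) in double-mutant P40 glands and 65.2% ± 10.9 (n = 7) in double-mutant P90 glands. The lowest gland was double-mutant P40 replicate 2 at 20.1% (95% Wilson interval 15.5 to 25.7%), and the groups overlapped. The double-mutant mean was 3.15 percentage points lower than the control mean (two-sided permutation test, p = 0.561, adjusted 0.561 over 3 factors). In the same permutation test males had 7.35 points more than females (p = 0.162, adjusted 0.243), and P90 glands 8.34 points more than P40 glands (p = 0.105, adjusted 0.243). Within batches that held both genotypes the differences ran from -22.4 to 15.2 points, with a pooled value of -0.804 (permutation within batches, p = 0.901). The direction turned with the depth required: with at least 3000 UMIs the double-mutant mean was 1.45 points higher, and when cells below 1500 UMIs were kept in the denominator P90 glands had 10.1 points fewer than P40 glands and double mutants 14.7 points fewer than controls (permutation p = 0.0464, adjusted 0.139).

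**Figure D2:**
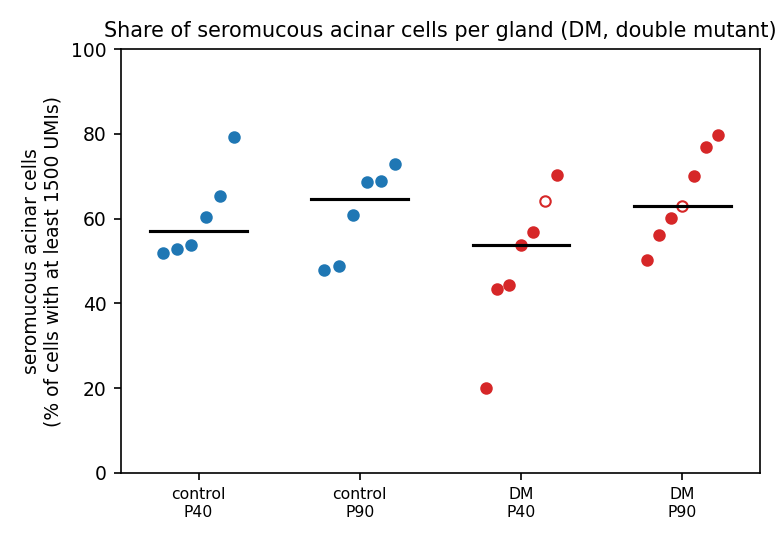
Share of seromucous acinar cells among cells with at least 1500 UMIs (percent), 1 point per gland in the 4 groups, bars at the medians and open points for the 2 libraries whose sex-linked genes go against the label. The groups overlap, and the lowest gland, double-mutant P40 replicate 2, is at 20.1%.

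The genotype comparison asked what the acinar cells of tumour-bearing glands express that those of control glands do not. Among the largest differences were a glycosylation enzyme and secreted proteins: Gcnt1, Odam, Wfdc18, Clu and Sval2 were higher in double-mutant acinar cells, and so were interferon response transcripts (Ifi27l2a, Irf1, Rsad2, Tap2), while the water channel Aqp5 and the sodium pump subunit Atp1b1 were lower. UMIs were summed per gland and fitted in edgeR (quasi-likelihood) with genotype, sex and stage together, and 119 of 4839 genes passed an adjusted p of 0.05 (2.46%), 89 higher (1.84%) and 30 lower (0.620%) in double mutants. When library sizes were taken from the UMIs outside the rule genes, 65 were higher and 75 lower, so the balance of directions depended on the scaling. Under that scaling none of the genes named by rule for genotype changed sign, while 2 of them, Spdef and Scgb2b24, did not pass. The libraries labelled control and double mutant could not be told apart by the targeted genes themselves. Ctnnb1, whose gain-of-function allele lacks an exon and is not expected to change in amount, had 22.1 and 25.05 CPM at the median in double-mutant P40 and P90 glands against 21.4 in each control group (log2 fold change 0.17 ± 0.19 SE, adjusted p = 0.735). Bmpr1a had 11.3 and 9.02 CPM against 10.1 and 12.9 (-0.26 ± 0.19, adjusted p = 0.551).

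Gcnt1, the enzyme that branches mucin-type O-glycans, separated the genotypes with 1 exception. In control glands 3 UMIs were counted in all, with 0 to 0.321 CPM at P40 and 0 in all 6 glands at P90. Double-mutant P40 glands had a lowest value of 0.820, a median of 51.2 and a highest of 78.5 CPM, and P90 glands 0, 17.9 and 54.0 CPM. All of the 14 double-mutant glands but P90 replicate 1 were therefore above every control gland. The pooled ratio was 283 (95% counting interval 96.3 to 1375, from 630 UMIs against 3), and the fitted log2 fold change was 7.46 ± 0.83 (adjusted p = 8.2e-06), and 7.40 with batch as a covariate (adjusted p = 0.00381). A UMI of Gcnt1 was found in 13.9% of double-mutant acinar cells, in 0.0726% of control acinar cells and in 6.0% of double-mutant immune reference cells of lower depth. Other double-mutant cells had 10.6 CPM of it against 32.2 CPM in the acinar cells. Within the double mutants, and without the 2 libraries of conflicting sex, the 7 female glands ranged from 17.1 to 78.5 CPM and the 5 male glands from 0 to 17.9 CPM, a comparison chosen after the values were seen; the interaction of genotype and sex for Gcnt1 was -2.29 ± 3.5 (unadjusted p = 0.525), in a fit where control males and females were both near 0.

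Odam, a secreted protein best known from enamel-forming epithelium, was close to absent in controls, with 8 UMIs in all and no control gland above 0.691 CPM. Double-mutant P40 glands had 0, 62.8 and 225 CPM (lowest, median, highest) and P90 glands 4.90, 75.1 and 311 CPM. Except for 2 P40 glands (replicates 3 and 7), the double mutants lay above every control gland. The log2 fold change of Odam was 7.41 ± 1.1 (adjusted p = 0.000200), 6.56 with batch (adjusted p = 0.0202), and the pooled ratio 115 (57.9 to 267). Only 3.13% of double-mutant acinar cells held an Odam UMI, and other double-mutant cells had 6.49 CPM against 34.9 in the acinar cells.

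Wfdc18, a whey acidic protein family member, had control medians of 113 CPM at P40 and 132 at P90 and double-mutant medians of 1708 and 5197 CPM, with a log2 fold change of 4.82 ± 0.60 (adjusted p = 3.38e-05; 4.23 with batch, adjusted p = 0.00285). Clu, the secreted chaperone clusterin, had medians of 3.31 and 1.124 CPM in controls and 34.0 and 108 in double mutants, every double-mutant gland above every control gland (4.28 ± 0.44, adjusted p = 2.15e-06; 3.84 with batch, adjusted p = 0.00274). Both were more abundant in other double-mutant cells, Wfdc18 at 32814 and Clu at 335 CPM, than in the acinar cells. The list of luminal tumour markers, which holds both, summed to 0.0333% to 0.0968% of acinar UMIs in control glands and to 0.108% to 1.54% in double-mutant glands. Of its 5 genes all were detected in double mutants and Ltf was at 0 in controls. The part of RNA from these cells in the acinar values was not tested.

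**Figure D3:**
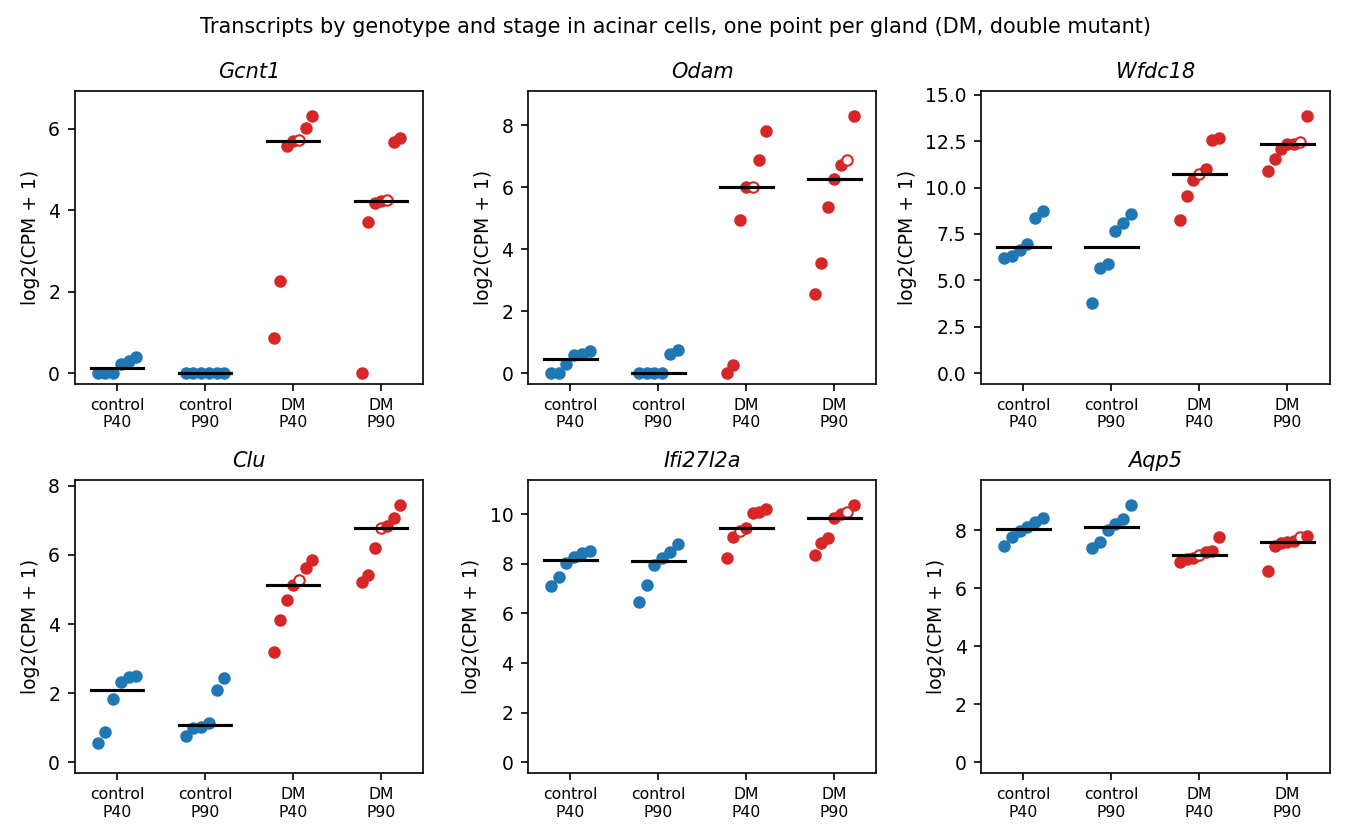
log2(CPM + 1) of 6 transcripts in the acinar cells, 1 point per gland in the 4 groups, bars at the medians, open points for the 2 libraries whose sex-linked genes go against the label. Clu is higher in each of the 14 double-mutant glands than in each of the 12 control glands, and Aqp5 is lower at the median in both stages.

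Among the 18 other salivary secretions tested, 3 were called higher and none lower, with a median log2 fold change of 0.70 against -0.0125 over all genes tested. Besides Wfdc18 these were Sval2, a relative of Pip (2.94 ± 0.42, adjusted p = 0.000167; 2.55 with batch, adjusted p = 0.0387), and the secretoglobin Scgb2b24 (1.41 ± 0.38, adjusted p = 0.0462; 1.24 with batch, adjusted p = 0.0507). The call of Scgb2b24 was made in 6 of the 26 fits that left out 1 gland each. Sval2 had medians of 4.53 and 4.24 CPM in control P40 and P90 glands against 25.5 and 53.7 in double mutants. Scgb2b20, outside the list, had medians of 2.36 and 2.88 against 6.37 and 23.9 CPM (3.04 ± 0.65, adjusted p = 0.0111), and Cdo1, cysteine dioxygenase, 7.70 and 7.94 against 24.5 and 27.1 CPM (2.30 ± 0.56, adjusted p = 0.0239). With batch as a covariate neither passed, at 3.19 (adjusted p = 0.0585) and 1.70 (adjusted p = 0.432). Pip itself did not pass (0.25 ± 0.23, adjusted p = 0.675), nor did Lpo (0.13 ± 0.14, adjusted p = 0.753).

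The 3 secretoglobins of the rule did not go one way, as a description of the genes that chose the cells. Scgb2b27 made up 6.99% ± 1.2 of acinar UMIs in 12 control glands and 10.7% ± 2.6 in 14 double-mutant glands, and Scgb1b27 9.11% ± 1.5 and 12.2% ± 1.7, whereas Scgb2b26 made up 4.16% ± 1.2 in controls and 3.65% ± 1.5 in double mutants. Prol1 was lower in double mutants, at 5.14% ± 2.1 against 7.60% ± 1.4, and Spt1 at 35.1% ± 3.8 against 39.98% ± 3.1. Since these are shares of 1 total, a higher share of one goes with lower shares of the rest.

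Interferon response and MHC class I genes gave 4 higher and no lower calls among 16 tested (median 0.56). Ifi27l2a, an interferon-induced protein, had 137, 283 and 368 CPM in control P40 glands (lowest, median, highest), 87.3, 273 and 442 in control P90 glands, 298, 691.5 and 1173 in double-mutant P40 glands and 326, 928 and 1300 in double-mutant P90 glands. Its groups overlapped at their edges, and its log2 fold change was 1.52 ± 0.27 (adjusted p = 0.00134; 1.44 with batch, adjusted p = 0.0181). Irf1, a transcription factor of the interferon response, changed by 1.55 ± 0.26 (adjusted p = 0.000463; 1.29 with batch, adjusted p = 0.00176). Rsad2, the antiviral protein viperin (2.96 ± 0.70, adjusted p = 0.0221), and Tap2, a peptide transporter of antigen presentation (1.10 ± 0.28, adjusted p = 0.0232), did not pass with batch, at 2.68 (adjusted p = 0.321) and 1.05 (adjusted p = 0.364). Without the 2 libraries of conflicting sex, 2 of the 16 were called. Immune cells hold Rsad2 at 76.7 CPM and Irf1 at 230 CPM. The list of macrophage and MHC class II markers summed to 0.00467% to 0.0308% of acinar UMIs in control glands and to 0.00446% to 0.0667% in double-mutant glands, with none of its 12 genes at 0 in either, and its part in the interferon result was not tested.

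Fluid secretion genes gave 2 lower and no higher calls among 12 tested (median -0.08). Aqp5 had 173, 264 and 344 CPM in control P40 glands, 166, 277 and 460 in control P90 glands, 119, 140.5 and 214 in double-mutant P40 glands and 95.7, 191 and 219.9 in double-mutant P90 glands. Its log2 fold change was -0.78 ± 0.14 (adjusted p = 0.000899). Atp1b1 changed by -0.63 ± 0.14 (adjusted p = 0.0106), and Slc12a2 by -0.59 ± 0.17, which did not pass (adjusted p = 0.0523). With batch as a covariate neither Aqp5 (-0.83, adjusted p = 0.120) nor Atp1b1 (-0.59, adjusted p = 0.547) passed. The Bmp target Id2, a repressor of differentiation, was lower at -0.72 ± 0.18 (adjusted p = 0.0198; -0.62 with batch, adjusted p = 0.525), the only one of 7 tested Wnt and Bmp pathway genes to be called. In the CITE-seq glands described below Id2 went the other way, at 178 and 240 CPM in double mutants against 144 and 110 in controls.

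No gene of the lists for the machinery of secretion was called by genotype in the Drop-seq glands. Over all genes tested 2.46% were called, so lists this small can hold no call without differing from the rest. None of 25 endoplasmic reticulum chaperone and unfolded protein response genes passed (median 0.03), among them Hspa5 at 0.06 ± 0.14 and Calr at 0.03 ± 0.14, none of 25 genes of protein translocation (median -0.10) and none of 10 granule exocytosis genes (median -0.005). Of 10 acinar regulators tested 1 was called, Spdef, a transcription factor of mucous and secretory cells (0.82 ± 0.22, adjusted p = 0.0329), which is at 423.5 CPM in Muc19-high cells and did not pass with batch (adjusted p = 0.817) or in 13 of the 26 fits without 1 gland. Bhlha15 was at 0.14 ± 0.14 and Xbp1 at 0.22 ± 0.15. Among immediate early and heat shock genes 2 of 21 were called, Ier3 (1.91 ± 0.36, adjusted p = 0.00291) and Egr1 (0.95 ± 0.22, adjusted p = 0.0131), both transcripts that cells induce within minutes of stimulation. Neither passed with batch, Ier3 at 1.23 (adjusted p = 0.416) and Egr1 at 0.81 (adjusted p = 0.169). Of 85 ribosomal protein genes 4 were called higher, among them Rps28 (1.16 ± 0.27, adjusted p = 0.0195), Rpl38 (1.05 ± 0.23, adjusted p = 0.00812) and Rpl37a (0.72 ± 0.18), and Rpl29 was lower (-0.90 ± 0.20, adjusted p = 0.0108). With batch Rps28 passed (1.09, adjusted p = 0.0181), and Rpl38 (0.62, adjusted p = 0.462), Rpl37a (0.70, adjusted p = 0.318) and Rpl29 (-0.99, adjusted p = 0.0770) did not. Ribosomal protein genes have many processed copies in the genome among which reads can be split.

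Transcripts of plasma cells and of granular duct cells also differed between genotypes in the acinar cells. All 3 plasma cell transcripts tested were called higher, Igkc by 5.07 ± 0.88 (adjusted p = 0.00148), Igha by 4.95 ± 0.80 (adjusted p = 0.000742) and Jchain by 5.32 ± 0.82. Their list summed to at most 0.00347% of acinar UMIs in control glands and to 0.00125% to 0.0935% in double-mutant glands, and Igkc was at 7781 CPM in other double-mutant cells. With batch as a covariate neither Igkc (4.29, adjusted p = 0.118) nor Igha (4.60, adjusted p = 0.0556) passed. Of 14 striated and granular duct transcripts tested, 7 were called lower and none higher, with Klk1b26, a kallikrein-related protease, at -3.74 ± 0.73 (adjusted p = 0.00540), Klk1b16 at -3.36 ± 0.74 and Klk1b3 at -2.40 ± 0.58. The 8 largest decreases at 20 CPM or more were all of the Klk1b family (down to Klk1b3), whose members are close paralogues. None of these 8 passed with batch, among them Klk1b26 at -4.13 (adjusted p = 0.163), Klk1b16 at -3.40 (adjusted p = 0.380) and Klk1b3 at -2.60 (adjusted p = 0.313). Klk1b26 stood at 33544 CPM in other control cells and at 491 CPM in control acinar cells, and the duct list summed to 0.0693% to 0.775% of acinar UMIs in control glands and to 0.00478% to 0.360% in double-mutant glands. The part of RNA from other cells in these values was not tested.

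EYFP, the recombination reporter, had UMIs in 18.6% of control and 10.2% of double-mutant acinar cells, and in 23.1% of 13 control and 24.7% of 150 double-mutant immune reference cells, which K14-Cre should not mark. The acinar shares were below that background and were not read as expression. The levels, 38.9 CPM in control and 22.6 in double-mutant acinar cells, did not pass the test (-1.48 ± 0.57, adjusted p = 0.205).

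The comparison by sex asked whether acinar cells differ between males and females. Among the genes called, St6galnac2 and St6galnac1, which cap the first sugar of O-glycans, were higher in males, and St3gal1, which caps an extended O-glycan, St3gal4 and Gne, the enzyme that makes the sialic acid precursor, were higher in females. In all, 65 of 4839 genes passed (1.34%), 44 higher in males (0.909%) and 21 lower (0.434%). Without the 2 libraries whose sex-linked genes go against the label 117 genes passed, and in control glands alone 179. All values by genotype and sex that follow leave out those 2 libraries, whereas the tests include them. With batch as a covariate 5 of the 20 genes named by rule for sex passed (St6galnac2, St6galnac1, Krt8, Egf and 4833423E24Rik) and 15 did not, with no change of sign.

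St6galnac2 had 0 UMIs in all 6 control female glands and 8.12, 35.5 and 59.4 CPM (lowest, median, highest) in the 6 control male glands, which was at least 137-fold higher if a count of 0 allows up to 3 UMIs over the group. In double mutants the 7 female glands had 0 to 0.449 CPM and the 5 male glands 0, 1.99 and 31.8 CPM. The sexes did not overlap in controls and did overlap in double mutants. The log2 fold change, male over female, was 6.99 ± 0.89 (adjusted p = 3.53e-05; 7.30 with batch, adjusted p = 5.6e-10). St6galnac1 had 0, 1.40 and 11.1 CPM in control females and 19.1, 33.8 and 75.1 CPM in control males, again with no overlap, against medians of 2.69 and 17.9 CPM in double-mutant females and males (3.07 ± 0.50, adjusted p = 0.00103; 3.82 with batch, adjusted p = 0.0132). These were 2 of the 3 genes called among 8 tested for mucin-type O-glycosylation.

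St3gal1 was the third and ran the other way. Control females had 54.1, 63.3 and 109 CPM and control males 1.56, 5.31 and 22.7 CPM, while double-mutant females and males had medians of 74.1 and 39.8 CPM (-1.89 ± 0.44, adjusted p = 0.0260; -1.57 with batch, adjusted p = 0.486). St3gal4 had medians of 141 CPM in control females and 49.2 in control males, without overlap, and of 75.5 and 68.8 CPM in double mutants (-0.91 ± 0.20, adjusted p = 0.0110; adjusted p = 0.252 with batch). Gne had 117 and 68.3 CPM in controls and 96.4 and 85.7 CPM in double mutants (-0.51 ± 0.13, adjusted p = 0.0361; adjusted p = 0.875 with batch), and passed in 9 of the 26 fits without 1 gland. Muc19-high cells hold St3gal1 at 690.0, St3gal4 at 657 and Gne at 799.5 CPM. St6galnac1 and St6galnac2 had 0 UMIs in these 114 cells, whose number and median depth of 2160 UMIs can leave low levels undetected. The test of a different sex effect in the 2 genotypes did not pass for any of these genes: the interaction was 2.49 ± 0.66 for St3gal1 (unadjusted p = 0.00104, adjusted 0.514), 1.085 ± 0.35 for St3gal4 (unadjusted p = 0.00341, adjusted 0.786) and -2.13 ± 1.0 for St6galnac1 (unadjusted p = 0.0449, adjusted 0.9998). Across all 5456 genes tested none had an adjusted p under 0.05 in edgeR, 186 had an unadjusted p under 0.05, and DESeq2 called 4.

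**Figure D4:**
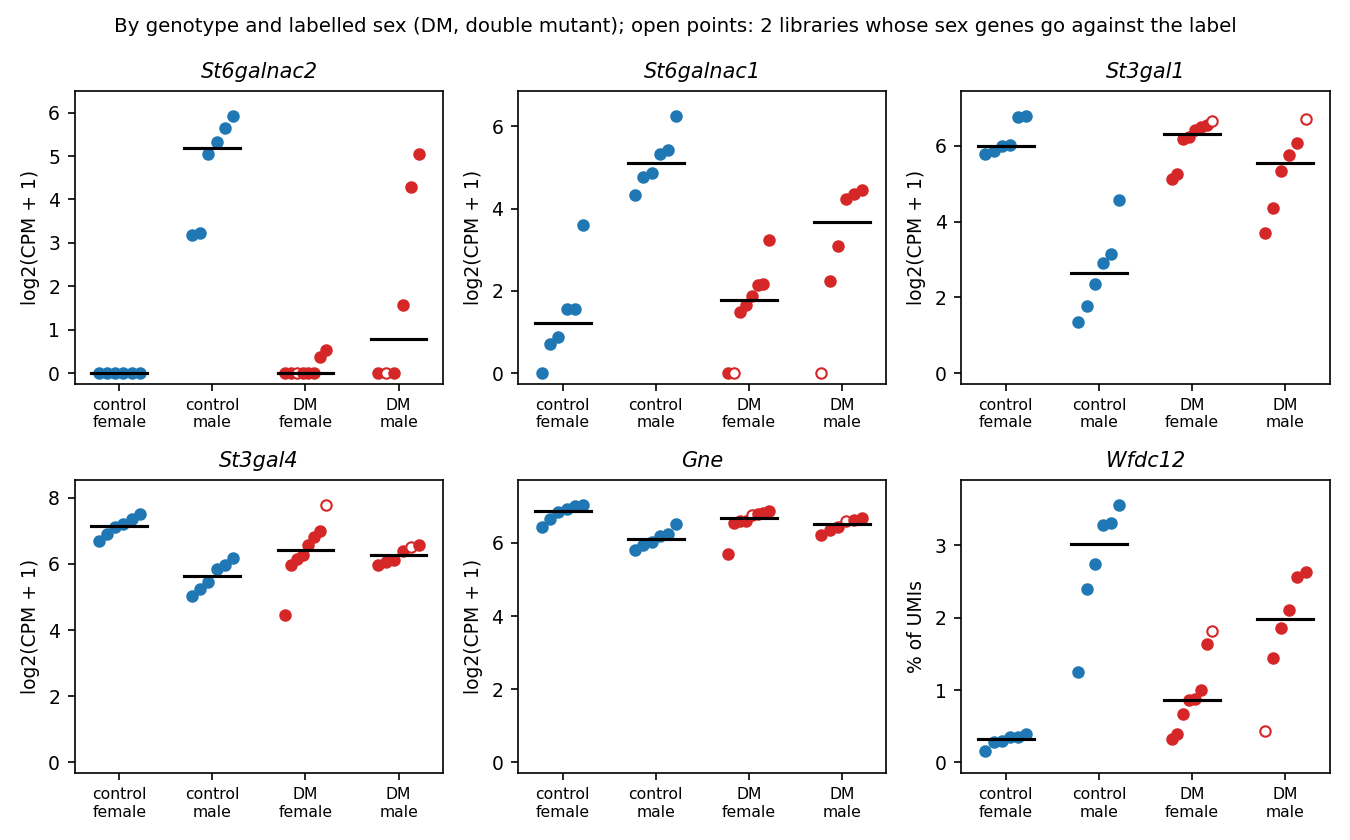
Transcripts of 5 enzymes that make or attach sialic acid in log2(CPM + 1) and Wfdc12 in percent of UMIs, 1 point per gland by genotype and labelled sex, bars at the medians, open points for the 2 libraries whose sex-linked genes go against the label. In control glands males lie above females for St6galnac2 and St6galnac1 and below them for St3gal1 and St3gal4.

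Other transcripts with higher levels in males were Krt8, a keratin of simple epithelia (0.87 ± 0.16, adjusted p = 0.00125; 0.87 with batch, adjusted p = 0.0211), and the growth factor Egf (1.33 ± 0.28, adjusted p = 0.0124; 1.14 with batch, adjusted p = 0.0193), with control medians of 27.2 CPM in females and 115 in males. The largest positive values at 20 CPM or more belonged to Klk1b paralogues, led by Klk1b16 (4.77 ± 0.75; 3.70 with batch, adjusted p = 0.116), and to Crisp3 (2.14 ± 0.51; 1.94 with batch, adjusted p = 0.431). Egf was at 2446, Klk1b16 at 5175 and Crisp3 at 9665 CPM in other cells, and 7 of 14 duct transcripts were called higher in males, so that duct RNA moved with sex and its part was not tested. Lower in males were Ccl28, a chemokine of mucosal glands (-0.69 ± 0.17, adjusted p = 0.0315; -0.48 with batch, adjusted p = 0.698), 4833423E24Rik (-0.94 ± 0.21, adjusted p = 0.0125; adjusted p = 0.0068 with batch), Uaca (-0.63 ± 0.15; -0.72 with batch, adjusted p = 0.168) and Phyh, a peroxisomal enzyme (-0.56 ± 0.14; -0.60 with batch, adjusted p = 0.360). None of 10 acinar regulators and none of 12 fluid secretion genes was called by sex, where 1.34% of all genes tested were. Xist, as the label check, was at -3.35 ± 0.85 with the conflicting libraries included and passed in 3 of the 26 fits without 1 gland.

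The rule genes Wfdc12 and 2310057J18Rik also differed by sex, as a description. Wfdc12 made up 0.585% ± 0.42 of acinar UMIs in 13 female and 2.47% ± 0.75 in 11 male glands, and 2310057J18Rik 0.225% ± 0.31 and 1.35% ± 0.60, without the 2 conflicting libraries. Wfdc12 was not particular to the acinar cells: in Muc19-high cells it was 4.35% of UMIs.

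The comparison by stage gave 279 of 4839 genes (5.77%), 258 higher at P90 (5.33%) and 21 lower (0.434%), but 153 of the 258 were predicted or clone-named genes. With batch as a covariate 2 genes passed, none of them among the 279. Only 3 batches held both stages, each with 3 P40 glands and 1 P90 gland, which was a double mutant. That fit therefore rests on few P90 glands and on no control one, and cannot decide whether the calls by stage hold within batches. Cebpb, a transcription factor, had 1.17, 2.13 and 6.19 CPM in control P40 glands and 1.1, 53.7 and 106 CPM in control P90 glands, with overlap, and medians of 4.25 and 87.7 CPM in double mutants (3.75 ± 0.61, adjusted p = 0.00136; adjusted p = 0.370 with batch). Klf2, Hspa1b and Jund, 3 of 21 immediate early and heat shock genes, were called higher (2.73 ± 0.52, 1.75 ± 0.33 and 1.735 ± 0.38). Of the 8 largest increases at 20 CPM or more 4 were processed ribosomal protein copies such as Rpl32-ps (2.88 ± 0.60 and -0.30 with batch). Among the decreases were Pde4b, a phosphodiesterase (-0.71 ± 0.17), Spop (-0.67 ± 0.16), Socs2 (-0.78 ± 0.23) and Tcn2, a vitamin B12 carrier (-0.56 ± 0.14), and among granule exocytosis genes Snap23 (-0.74 ± 0.21, adjusted p = 0.0276). Sec61g and Ost4, 2 of the 25 genes tested of the protein translocation list, were called higher (1.02 ± 0.29 and 0.98 ± 0.29), where 5.33% of all genes tested were. Mucl1, a rule gene, made up 0.426% ± 0.22 of acinar UMIs in control P90 glands against 0.0766% ± 0.046 in control P40 glands, and 0.211% ± 0.26 against 0.119% ± 0.061 in double mutants.

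A different effect of genotype at the 2 stages was called for 1 of 5456 genes tested (0.0183%), while 449 had an unadjusted p under 0.05, and DESeq2 called 19. The 1 gene was Lman1l, whose name places it among lectins of the secretory pathway, with medians of 5.49 CPM in control P40, 12.9 in control P90, 6.54 in double-mutant P40 and 0.370 in double-mutant P90 glands (interaction -3.16 ± 0.60, adjusted p = 0.0316). Control P90 replicates 1 and 2, the only glands of batch 7, held 61 and 37 of its UMIs and the other control P90 glands 4 to 18. Double-mutant P90 glands held 0 to 15. In the CITE-seq glands described below Lman1l was at 9.23 and 22.9 CPM in double mutants (8 UMIs) against 6.40 and 5.96 in controls (18 UMIs).

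The CITE-seq glands gave a second set of cells under the same rule. Acinar cells made up 62.2% (95% exact interval 56.6 to 67.4%) and 69.1% (64.4 to 73.6%) of cells of at least 1500 UMIs in the 2 control glands and 28.6% (22.6 to 35.3%) and 21.1% (14.7 to 28.8%) in the 2 double-mutant glands, with 202, 280, 59 and 30 cells. With 2 glands a side a two-sided exact permutation test cannot go below p = 0.333, so none was run. Gcnt1 had 0 UMIs in both control glands and 118 and 97.2 CPM in the double-mutant glands, at least 109-fold higher. Odam had 0 UMIs in both controls and 57.7 and 149 CPM, at least 81.85-fold higher. Wfdc18 had 61.6 and 159 CPM in controls and 4452 and 4855 CPM in double mutants, and Clu 0 and 2.38 against 39.2 and 28.6 CPM. Ifi27l2a had 369 and 361 CPM in controls and 1258 and 1241 CPM in double mutants. Each of these 5 transcripts was thus higher in both double-mutant glands. Aqp5, at 379 and 337 CPM in controls and 406 and 292 in double mutants, did not separate them, nor did Sval2, at 11.997 and 4.77 CPM in controls and 27.7 and 0 in double mutants, and Scgb2b20, Cdo1, Rsad2, Tap2 and Spdef likewise lay above both controls in 1 of the 2 double-mutant glands. Of the 84 genes called higher in the Drop-seq glands that had at least 10 UMIs here, 58 were above both controls in both double mutants and 6 below, of the 30 called lower 20 were below and 3 above, and of all 4793 tested genes 1404 were above and 956 below. The endoplasmic reticulum list differed from the Drop-seq result, since 18 of its 25 genes were above both controls in both double mutants and 3 below. Hspa5 had 186 and 216 CPM in controls and 452 and 440 in double mutants, Calr 120.0 and 135 against 252 and 315, and Manf 33.6 and 34.0 against 108 and 109. Of 25 protein translocation genes 14 were above and 2 below, of 20 immediate early and heat shock genes 18 above and none below, and of 246 predicted or clone-named genes 169 above and 8 below. Of 13 striated and granular duct genes 12 were below and none above. Labelled sex was not balanced between the genotypes in the CITE-seq glands, and its part in these values was not tested.

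Surface epitopes were read in the same CITE-seq cells with 61 antibodies, as a share of each cell group's antibody counts. MHC class II (IA/IE) was lower in acinar cells than in other cells of the gland in all 4 glands, with log2 ratios from -5.78 to -3.99, as were the transferrin receptor CD71 (-4.58 to -2.85) and the myeloid integrin CD11b (-4.15 to -1.63), each below all 4 isotype controls in the same gland. CD24 (-1.85 to -0.64), CD69, cKit and Delta-like 4 were also below them in all 4 glands. The epithelial marker EpCAM was above them in 1 gland and below them in 2 (-0.75 to 1.59). CD97, an adhesion receptor, was above them in all 4 glands (2.09 to 3.44), and so was CD25 (1.48 to 2.06). In double-mutant replicate 2 CD25 was at 1.48 against 1.31 for the highest isotype control. Median antibody counts per cell were lower in acinar than in other cells of each gland (638 to 1388 against 982 to 3029). The isotype controls themselves ran from -0.47 to 1.80, and all values are shares of 1 total.

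In the bulk libraries the 10 secretory transcripts took 71.8% (95% Wilson interval 71.8 to 71.9%) of reads in the control gland and 75.9% (75.9 to 75.9%) in the double-mutant gland, with no replicates and different ages. Gcnt1 was at 0.637 CPM in the control and 85.6 in the double mutant, and Odam at 0.203 and 9.39. Clu was at 6.63 and 110.3 and Wfdc18 at 64.4 and 586.5 CPM, in the same order. Of the listed interferon response transcripts called by genotype, Ifi27l2a was higher in the double mutant, at 144.5 and 207.2 CPM. The others differed little, with Irf1 at 13.01 and 11.81, Rsad2 at 2.72 and 2.79 and Tap2 at 7.04 and 6.97 CPM. Ier3 was at 1.51 and 7.37 CPM, and Egr1 at 1.39 and 1.58. In bulk tissue fewer cells of a type and less RNA per cell cannot be told apart.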

How the data were processed

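For all single-cell libraries the authors ran Drop-seq tools, aligned with STAR on mm10 (GENCODE vM7 genes, with Cre and EYFP added), and deposited UMI counts per gene for the barcodes above the knee, without normalization. Cells had been sorted as live single cells, and were fixed in methanol for Drop-seq. The authors' antibody counts come from CITEseq-count, without a statement whether they are UMIs or reads, and the tags that matched no antibody were left out. The deposited bulk counts are reads on exons from featureCounts. No doublet caller was run here. The paper added a low amount of human HEK cells to the CITE-seq suspensions and removed them after mapping to both genomes. Human cells were not looked for here, so the other cells of the CITE-seq glands may include some.

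Members and gene lists were chosen with earlier results of these data known. UMIs of the acinar cells were summed per gland (at least 10 cells) and compared with edgeR 4.0.16 (quasi-likelihood test, TMM, filterByExpr, Benjamini-Hochberg over all genes tested, threshold 0.05, R 4.3.3), with the 13 genes of the rule kept in the library sizes and out of the tests. SE is the log2 fold change divided by the square root of F. CPM are UMIs per 1e+06 UMIs of the acinar cells of a gland, and a UMI is counted once per molecule whatever the transcript's length. Shares were compared over glands by permutation with 100000 resamples. Intervals are 95% binomial ones, exact unless named, and floors use 3 counts for a count of 0, where both cover counting error only. The study describes a replicate as the cells of a single gland of a mouse, and handled the CITE-seq animals separately. Named genes are, per factor, the 8 largest positive and negative log2 fold changes among called genes with a mean of at least 20 CPM (predicted genes only counted), up to 4 called members of each list, and the 20 transcripts most concentrated in the acinar cells. In a simulation of the genotype comparison on 4589 genes, 93.3% of genes changed 2-fold and 98.9% of those changed 4-fold were called. Of 4408 unchanged genes 6 were called. For sex and stage 81.3% and 83% of genes changed 2-fold were called. The simulated counts held no batch differences and no RNA of other cells, so these rates do not cover either. Muc19-high cells held at least 2% Muc19, and immune reference cells at least 3% of 10 macrophage and MHC class II transcripts. DESeq2 1.42.0, lme4 1.1.37, Python 3.11.15, numpy 2.4.6, scipy 1.17.1, pandas 2.3.3 and matplotlib 3.10.9 were also used. Promoter stretches are from RefSeq (GRCm38.p6), for 18 of 25 genes looked up. Alternatives were other depth and rule limits, no filter on low counts, other library sizes, DESeq2, batch or replicate number as a covariate, thinning to one depth, and leaving out glands.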

Additional observations from a re-analysis of the deposited data

Results flagged for a closer look

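Single glands stood apart from the rest of their group in 11 of 100 groups of 6 or 7 glands examined by Dixon's criterion at 95%, where chance alone gives about 5. Among the secretory transcripts, Oit1 was at 0.0325% of acinar UMIs in double-mutant P90 replicate 5 (95% Wilson interval 0.0234 to 0.0449%; the other glands reached 0.0168%), Mucl1 at 0.772% in double-mutant P90 replicate 4 (0.741 to 0.805%; others up to 0.286%) and 2310057J18Rik at 1.71% in double-mutant P40 replicate 3 (1.70 to 1.72%; others up to 0.579%). Pip was at 62009 CPM in control P90 replicate 3, where the other 5 glands reached 38828.

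Odam was at 311 CPM in double-mutant P90 replicate 4 (others up to 117), Wfdc18 at 14651 CPM in double-mutant P90 replicate 2 (others up to 5698), Sval2 at 197 CPM in double-mutant P90 replicate 1 (others up to 75.0) and Irf1 at 180.3 CPM in double-mutant P90 replicate 5 (others up to 88.8). Aqp5 was high at 214 CPM in double-mutant P40 replicate 3 and low at 95.7 CPM in double-mutant P90 replicate 4, where the other glands had at least 172. The library of double-mutant P90 replicate 4, flagged here for Mucl1, Odam and Aqp5, was left out of the paper's subclustering because its ribosomal gene content was high. St6galnac1 was at 21.1 CPM in double-mutant P40 replicate 3, a male gland in a group of both sexes whose other glands reached 8.50. Odam, Wfdc18, Sval2, Irf1 and Aqp5 kept their direction and passed the test without each of the 26 glands in turn.

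The effect of genotype on Lman1l differed between stages, with an interaction of -3.16 on the log2 scale by edgeR (adjusted p = 0.0316). Muc19-high cells held Lman1l at 1376 CPM against 7.59 in the acinar cells, and the part of their RNA in this value was not tested.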

How the results depend on the processing

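Among 26987 barcodes only cells of at least 1500 UMIs were classed, so shallow acinar cells were not detectable at this depth. Directions of the share differences changed in 2 settings: with shallower cells kept in the denominator, stage was -10.1 points, and with at least 3000 UMIs genotype was 1.45 points. Without each gland in turn the genotype difference ran from -4.85 to -0.254 points, sex from 4.60 to 8.98 and stage from 5.42 to 10.4. The count by genotype (119) was 236 with DESeq2, 399 without a filter, 60 with batch, 26 when thinned to the smallest total, and 96 to 193 without each gland, the highest without double-mutant P40 replicate 3. The count by sex (65) was 99 with DESeq2, 292 without a filter, 4 when thinned, 117 without the 2 conflicting libraries and 179 in controls alone, and 38 (without control P40 replicate 3) to 99 (without double-mutant P40 replicate 1) without each gland. The count by stage (279) was 1026 without a filter, 2 with batch, 0 when thinned and 521 in controls alone, and 221 to 417 without each gland. The count for genotype by stage (1) was 19 with DESeq2, 59 without a filter, 0 with a rule limit of 40%, 3 with batch, 0 when thinned and 0 to 9 without each gland, and for genotype by sex (0) was 4, 6 and 0 to 3 with DESeq2, without a filter and without each gland. Thinning left 443 genes to test by genotype. Otherwise the causes were not tested. The replicate number as a block gave 168 genes by genotype, 27 by sex and 422 by stage. Same-numbered glands did not deviate together (mean r -0.0176 against -0.0372 for other numbers). Of 37 such pairs 8 were above 0.1, and 0 of 26 glands were closest to their own number. Glands of the same batch did not deviate together by this measure either (mean r -0.0132). The measure therefore cannot decide whether the numbers pair glands. With batch as a covariate the sign turned for Ctnnb1 by genotype (-0.16) and, by stage, for Rpl32-ps (-0.30), Scgb2b6 (-1.68), Rps19-ps6 (-0.92), Socs2 (0.073), Sec61g (-0.45), Ost4 (-0.69) and Rpl37rt (-0.50), and 24 of the genes named by genotype and 15 of the 20 named by sex lost their call. Leaving out cells with over 1% RNA of all other cell type lists left 0 to 11 cells a gland and gave no value, so a shorter list was added after seeing the data, with 128 genes by genotype.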

Other observations

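Genes outside the lists that were called higher in double-mutant acinar cells included more interferon-induced transcripts, named here after their values were seen. They were Usp18 (log2 fold change 2.51), Ifitm3 (1.81), Rtp4 (1.52), Ddx58 (1.116), Irgm1 (0.93), Stat2 (0.93) and Irf9 (0.87). Cyp51 (1.71), of cholesterol synthesis, and Acly (0.80), which supplies the carbon for lipid synthesis, were also called higher, as were Sel1l (0.72), of the degradation of misfolded proteins, and Prlr (0.74), the prolactin receptor. Cldn10 (-0.83), a tight junction protein, and St3gal5 (-1.44), a sialyltransferase of glycolipids, were called lower. St3gal5 was also called by sex, at 2.602 higher in males, as were the metallothioneins Mt1 (1.25) and Mt2 (1.47).

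EYFP had 0 UMIs in the 749 acinar cells of control P40 replicate 5, while the other control glands held 30.8 to 82.9 CPM at P90 and up to 72.5 CPM at P40. Among double-mutant glands it also had 0 UMIs in P40 replicate 7 (148 acinar cells), P90 replicate 4 (68 cells) and P90 replicate 5 (46 cells).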
